A study of Mus musculus with 23 samples.

Results

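The transcription factors that set the helper identity of CD4+ T cells were followed across 23 RNA libraries of cultured mouse splenic T cells. The 9 genes were Tbx21, Eomes, Gata3, Rora, Bcl6, Maf, Prdm1, Runx3 and Ahr, taken by symbol from a count table of 53379 gene IDs, of which 16882 held enough reads to be tested and all 9 factors were among them. T cells of C57BL/6 background had been sorted by flow cytometry as CD45+CD3+CD4+ and CD8-, kept for 72 hours with 30 IU/ml of IL-2 alone (called unstimulated) or with antibodies to CD3 and CD28 (called stimulated), and given 5 mM niacin or none, in cells labelled wild type or knockout for Gpr109a, a receptor that binds niacin and whose gene is Hcar2. Each of the 8 groups held 3 libraries, except the unstimulated knockout-labelled cells in niacin, which held 2. The labels leave unclear whether the stimulated cultures also held IL-2, and do not say how the knockout was made, how old the mice were, or whether libraries of one group came from separate mice, so p-values measure only the spread between these libraries.

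A naive helper T cell that meets antigen is steered by cytokines into one of several fates, and each fate is tied to a factor that turns on its own effector genes and restrains the others. Tbx21 encodes T-bet, the master factor of Th1 cells, and Eomes is its T-box relative, best known from cytotoxic and memory cells. Runx3 works with T-bet at the interferon-gamma gene and silences Cd4 in CD8+ cells. Gata3 drives the Th2 program and is also needed by CD4+ T cells in general, and Maf (c-Maf) supports Il4, Il10 and Il21. Rora is a nuclear receptor that promotes the Th17 program, and Ahr is a receptor for small aromatic ligands that is prominent in Th17 cells. Bcl6 is the factor of follicular helper T cells, and Prdm1 encodes Blimp-1, its antagonist.

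Depth ranged from 13205565 to 30090018 counted read pairs per library, with a median of 24007159. The gene named in the knockout label did not follow the labels: Hcar2 had at least 1 count in 10 of the 11 knockout-labelled libraries and in 1 of the 12 labelled wild type, so genotypes are given below only as labels. The shallowest library was library 3 labelled unstimulated knockout, against 20604050 counts in the next shallowest. That library stood apart for most of the 9 factors, and the main results that used it are given with and without it. Transcripts that define CD4+ T cells were present in all libraries, with a summed level over 8 markers of 3653 to 6122 CPM (counts scaled to library size). Markers of B cells and myeloid cells stayed at or under 8.62 and 7.99 CPM in sum, while Cd8b1 averaged 18.9 and Cd8a 1.46 CPM.

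Promoter windows of 300 bases, from before to just after a transcription start, were taken from RefSeq (GRCm38.p6). Those of Eomes and Bcl6 are printed because these factors had the largest rise and the largest fall after stimulation in wild-type-labelled cells, and those of Tbx21 and Runx3 for comparison with Eomes within the Th1 group. Capitals mark every match, on either strand, to GGAAA (the core bound by NFAT), TGANTCA (AP-1) or TGTGGT (RUNX). The Eomes window lay at chr9:118477939-118478238 on the plus strand and the Tbx21 window at chr11:97115282-97115581 on the minus strand. The Runx3 windows were at chr4:135120395-135120694 (first start) and chr4:135152295-135152594 (second start), both on the plus strand. The Bcl6 windows were at chr16:23988803-23989102 (first start) and chr16:23981234-23981533 (second start), both on the minus strand.
Eomes: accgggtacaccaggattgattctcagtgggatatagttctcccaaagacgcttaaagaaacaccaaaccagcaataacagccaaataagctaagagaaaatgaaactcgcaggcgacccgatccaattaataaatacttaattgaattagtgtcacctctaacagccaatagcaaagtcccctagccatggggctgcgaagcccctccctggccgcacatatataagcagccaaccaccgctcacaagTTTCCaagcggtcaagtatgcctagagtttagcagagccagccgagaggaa
Tbx21: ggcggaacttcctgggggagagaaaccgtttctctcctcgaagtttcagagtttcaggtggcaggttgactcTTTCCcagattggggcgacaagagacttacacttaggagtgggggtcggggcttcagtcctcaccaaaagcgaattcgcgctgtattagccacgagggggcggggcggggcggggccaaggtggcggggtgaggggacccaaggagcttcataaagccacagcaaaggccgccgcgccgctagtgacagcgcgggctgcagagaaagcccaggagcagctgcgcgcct
Runx3 first start: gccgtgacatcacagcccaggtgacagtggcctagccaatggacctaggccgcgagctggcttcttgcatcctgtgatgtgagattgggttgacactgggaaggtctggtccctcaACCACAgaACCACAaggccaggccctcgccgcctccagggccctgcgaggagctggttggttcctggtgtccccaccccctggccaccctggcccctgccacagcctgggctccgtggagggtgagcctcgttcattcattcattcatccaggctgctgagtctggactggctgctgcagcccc
Runx3 second start: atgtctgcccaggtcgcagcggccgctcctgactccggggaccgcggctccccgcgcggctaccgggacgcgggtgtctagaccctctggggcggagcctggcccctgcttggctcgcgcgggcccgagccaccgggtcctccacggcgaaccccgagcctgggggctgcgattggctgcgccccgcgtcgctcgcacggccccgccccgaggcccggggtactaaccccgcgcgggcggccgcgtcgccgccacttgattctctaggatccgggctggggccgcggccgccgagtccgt
Bcl6 first start: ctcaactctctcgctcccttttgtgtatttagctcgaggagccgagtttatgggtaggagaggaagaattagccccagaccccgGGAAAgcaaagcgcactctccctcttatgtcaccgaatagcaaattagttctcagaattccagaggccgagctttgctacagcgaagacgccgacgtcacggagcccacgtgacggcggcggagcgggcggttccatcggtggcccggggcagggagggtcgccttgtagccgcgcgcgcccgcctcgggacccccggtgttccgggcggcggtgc
Bcl6 second start: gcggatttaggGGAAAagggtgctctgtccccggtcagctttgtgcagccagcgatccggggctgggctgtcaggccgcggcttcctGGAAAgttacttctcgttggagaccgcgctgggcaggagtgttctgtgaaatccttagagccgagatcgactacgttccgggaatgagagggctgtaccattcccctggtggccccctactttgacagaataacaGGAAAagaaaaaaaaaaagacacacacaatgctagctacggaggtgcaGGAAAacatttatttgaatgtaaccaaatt

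Over the 9 windows found for 7 of the factors (Maf and Ahr had no entry), 6 held GGAAA, against 61.3% of all 32851 promoter windows of 300 bases. The window at the second Bcl6 start held 4 copies and the one at the first start held 1. The first Runx3 window held 2 copies of TGTGGT, and none of the other 8 windows held one, against 16.8% of all windows. TGANTCA was found in the Prdm1 window alone, against 7.81% of all windows. Of 3 further motifs searched on both strands, GCGTG (the core bound by AHR) was in the Rora and Prdm1 windows (32.4% of all windows), while the GATA motif AGATAA (11.2%) and the T-box motif GTGTGA (14.5%) were in none of the 9. The second Runx3 window was the richest in G and C, at 77.3%, and the Eomes window the poorest, at 47.3%. A match describes letters and not a bound site.

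Stimulation gave calls for 5 to 7 of the 9 factors in each comparison, and for a large part of all genes too. In wild-type-labelled cells without niacin, edgeR's quasi-likelihood test with Benjamini-Hochberg adjustment over all 16882 genes called 2 of the 9 factors higher (Eomes and Runx3) and 4 lower (Tbx21, Rora, Ahr and Bcl6) at an adjusted p under 0.05. Among all genes 23.4% were called higher and 21.7% lower in that comparison. In niacin, the same label gave 2 higher (Eomes and Runx3) and 4 lower (Maf, Rora, Ahr and Bcl6), against 26% and 26.6% of all genes. In knockout-labelled cells 1 was higher (Eomes) and 6 lower without niacin (25.2% and 27.5% of all genes). In niacin 2 were higher and 3 lower (24.5% and 25.3% of all genes). Without library 3 labelled unstimulated knockout, the comparison without niacin gave 2 higher (Eomes and Runx3) and 4 lower (Gata3, Rora, Ahr and Bcl6), against 27.2% of all genes in each direction. The median log2 fold change of the 9 was -1.04, -0.67, -1.55 and -0.63 in the same order, beside -0.07, -0.10, -0.13 and -0.07 over all genes tested. Eomes rose and Rora, Ahr and Bcl6 fell in all 4 comparisons. The comparisons share no library, but they came from the same model with a shared estimate of the spread. Prdm1 was called in none. In bulk RNA, fewer cells of a type and less RNA per cell cannot be told apart.

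**Figure D1:**
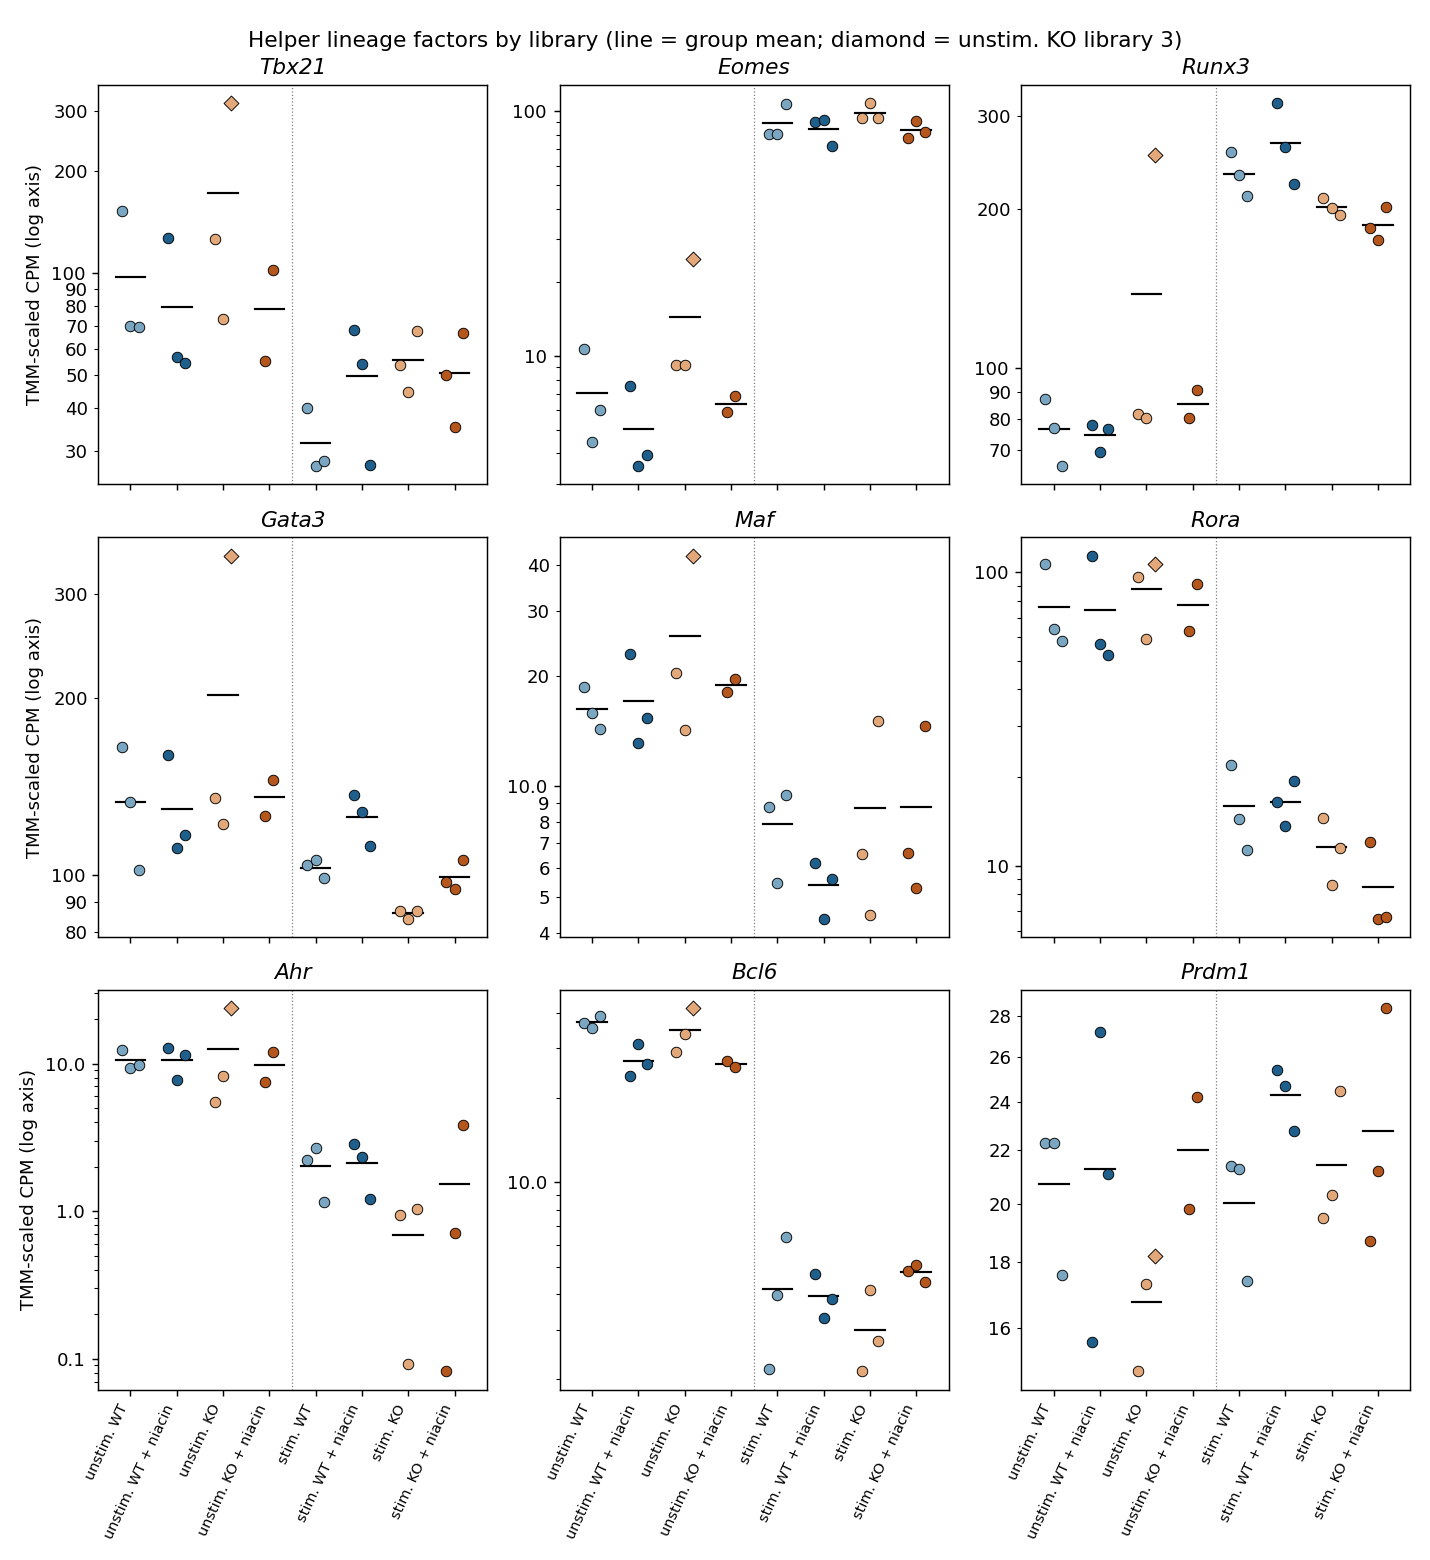
Level of each factor in each library (y axis, TMM-scaled CPM on a log axis that differs between panels) in the 8 groups (x axis); points are libraries, lines are group means, and the diamond is library 3 labelled unstimulated knockout. Eomes lay at 72.3 CPM or more in the 12 stimulated libraries and at 25 or less in the 11 unstimulated ones, Bcl6 did the reverse, and the Prdm1 values overlapped.

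Eomes (ENSMUSG00000032446, chr9:118478212-118486132, plus strand) showed the clearest rise. Its CPM in the unstimulated wild-type-labelled libraries was 10.7, 4.44 and 6.02, and 7.55, 3.54 and 3.93 with niacin. The stimulated counterparts read 81, 80.9 and 107, and 90, 92 and 72.3 with niacin. The knockout-labelled libraries gave 9.15, 9.16 and 25 unstimulated, 5.89 and 6.83 with niacin, then 93.9, 108 and 93.9 stimulated and 77.8, 91.6 and 82.4 with niacin. No stimulated library overlapped an unstimulated one, and the highest unstimulated value was that of library 3 labelled unstimulated knockout. The log2 fold change was 3.67 ± 0.37 (SE; adjusted p = 1.22e-07, edgeR) and 4.09 ± 0.38 (2.99e-08) in wild-type-labelled cells without and with niacin. In knockout-labelled cells it was 2.80 ± 0.35 (2.01e-06, edgeR) and 3.72 ± 0.44 (1.18e-06). Without library 3 the value of 2.80 became 3.43 (adjusted p = 3.72e-08). Eomes exons shared 118 bases with the antisense gene Gm33460, which held 502 counts over all libraries against 27505 for Eomes, and with the strand setting of the counting not given in the sources used here, reads of such pairs cannot be told apart. The same holds for Gata3 (155 bases shared with Gm13256, 89 counts), Rora (82 with Gm15511, 128 counts), Bcl6 (21 with Gm37419, 4 counts), Maf (440 with Gm15655, 0 counts) and Ahr (127 with Gm48236, 51 counts).

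Tbx21 (ENSMUSG00000001444, chr11:97098071-97115331, minus strand) moved the other way. Unstimulated wild-type-labelled libraries read 152, 70.1 and 69.5 CPM, and 127, 56.8 and 54.4 with niacin. Stimulated ones read 40, 27 and 28 CPM, and 68.1, 54.2 and 27.2 with niacin. In knockout-labelled cells the values were 126, 73.5 and 317 unstimulated, 55 and 102 with niacin, 53.8, 44.7 and 67.5 stimulated, and 50.1, 35.2 and 66.7 stimulated in niacin. The groups without niacin did not overlap between states, and those with niacin did. Tbx21 fell by 1.62 on the log2 scale without niacin in wild-type-labelled cells (SE 0.47, adjusted p = 0.00849, edgeR) and the log2 change was -1.63 in knockout-labelled cells (SE 0.47, adjusted p = 0.00669). Both calls rested on 1 library: without unstimulated wild-type-labelled library 1 the first became -1.14 (adjusted p = 0.0649), and without library 3 labelled unstimulated knockout the second became -0.85 (0.0986). In niacin the log2 values were -0.67 (adjusted p = 0.229, edgeR) and -0.63 (0.313). The difference of the niacin effect between states, averaged over the labels, was 0.98 ± 0.48 (adjusted p = 0.424, edgeR), or 0.58 (adjusted p = 0.622) without library 3.

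Per kilobase of exon (RPKM, so that genes of different length can be compared), Eomes stood at 0.0356 to 0.0746 of Tbx21 in the 11 unstimulated libraries, with a median of 0.0433. In the 12 stimulated libraries the ratio was 0.74 to 2.29, with a median of 1.13. The ratio taken within a library did not set library 3 labelled unstimulated knockout outside the unstimulated range. These ratios describe the libraries and were not tested.

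Runx3 (ENSMUSG00000070691, chr4:135120652-135177990, plus strand) was the most abundant factor per kilobase in stimulated cells, at a median of 42.2 RPKM, and stood at 16 in unstimulated cells. Wild-type-labelled libraries read 87.3, 77 and 65.1 CPM unstimulated, 78.1, 69.3 and 76.6 with niacin, 257, 232 and 212 stimulated, and 318, 262 and 223 stimulated in niacin. Knockout-labelled libraries read 81.7, 80.4 and 253 unstimulated, 80.2 and 90.7 with niacin, 210, 201 and 195 stimulated, and 184, 175 and 202 stimulated in niacin. Apart from library 3 at 253 CPM, all unstimulated libraries lay at 90.7 or under and all stimulated ones at 175 or over. The log2 fold change was 1.61 ± 0.29 (adjusted p = 0.000148, edgeR) and 1.84 ± 0.29 (2.86e-05) in wild-type-labelled cells. It was 0.55 ± 0.29 (0.111) and 1.13 ± 0.33 (0.00767) in knockout-labelled cells. Leaving out library 3 turned 0.55 into 1.31 (adjusted p = 4.08e-07, edgeR). Without unstimulated knockout-labelled library 2 in niacin, where 1 library then stood alone, 1.13 became 1.04 (adjusted p = 0.0734).

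The Th1 effector list (19 genes, all tested) split: 3 were called higher and 8 lower in wild-type-labelled cells without niacin, and 3 and 11 with niacin. In knockout-labelled cells 3 and 7 were called without niacin, and 3 and 7 with niacin. The shares of all genes called higher and lower were 23.4% and 21.7%, 26% and 26.6%, 25.2% and 27.5%, and 24.5% and 25.3% in the same order. Gzmb, a killing protease, went from 127 ± 69.1 to 542 ± 261 CPM (SD, n = 3 libraries each, wild-type label, no niacin). Il12rb2, the inducible chain of the IL-12 receptor, went from 19.3 ± 10.2 to 99.2 ± 8.24 CPM, and Tnf from 25.5 ± 11.5 to 67.1 ± 7.84. Ifng fell from 27.1 ± 23 to 1 ± 0.395 CPM (log2 -4.76, adjusted p = 0.000753, edgeR). In knockout-labelled cells Ifng was 8 ± 6.94 unstimulated and 2.63 ± 1.2 stimulated (log2 -1.63, adjusted p = 0.132). The difference between labels in the response of Ifng, averaged over cultures without and with niacin, was 2.80 ± 0.94 (adjusted p = 0.141, edgeR). These values of Ifng without library 3 labelled unstimulated knockout were -1.98 (adjusted p = 0.086) and 2.63 (adjusted p = 0.149). Xcl1, a chemokine, fell from 12.9 ± 8.99 to 0.0675 ± 0.0656 CPM, and Cxcr3, a receptor gene that T-bet is known to induce, fell from 189 ± 66.3 to 39 ± 11.3.

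The sort for CD3+CD4+CD8- cells would remove natural killer cells and most gamma delta T cells. Natural killer cells also express Tbx21 and Eomes, and gamma delta T cells can express Tbx21. The summed level of 8 natural killer markers was 17.3 to 56.7 CPM in unstimulated and 0.948 to 8.22 in stimulated libraries, with Klrd1 the most abundant (11.1 CPM on average), Ncr1 at 0 in 11 of 23 libraries and Klra8 at 0 in all 23. Of 7 natural killer markers tested, 7, 6, 5 and 5 fell in the 4 comparisons and none rose, where 21.7% to 27.5% of all genes fell. The 4 gamma delta receptor genes of the table summed to 91.4 to 261 CPM unstimulated and 17.1 to 35.5 stimulated, and all 4 fell in each of the 4 comparisons. The part of those cells in the changes of Tbx21, Rora and Eomes was not tested. Library 3 labelled unstimulated knockout had the lowest sum of both lists among unstimulated libraries, at 17.3 and 91.4 CPM.

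**Figure D2:**
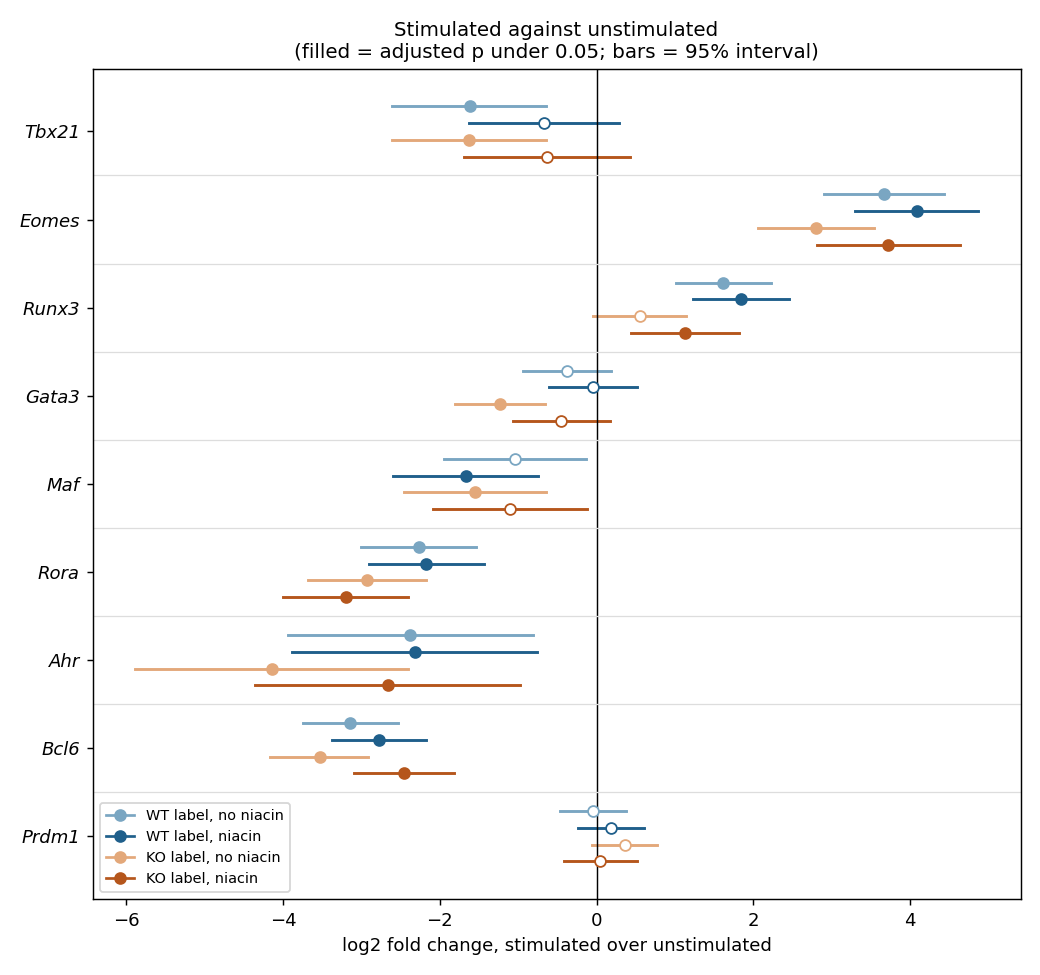
Log2 fold change of stimulated over unstimulated cells (x axis) for each factor (y axis) under the 2 labels without and with niacin; points are edgeR estimates, filled where the adjusted p was under 0.05, and bars are 95% intervals. Eomes lay right of 0 and Rora, Ahr and Bcl6 left of it in all 4 comparisons, with Eomes at 2.80 to 4.09.

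Gata3 (ENSMUSG00000015619, chr2:9857078-9890034, minus strand) spanned 2.35-fold between its highest and lowest group mean, less than Tbx21 (5.43-fold) and Runx3 (3.58-fold), the other abundant factors. The spans without library 3 labelled unstimulated knockout were 1.58-fold, 3.14-fold and 3.58-fold. Its CPM was 165, 133 and 102 in unstimulated wild-type-labelled libraries, 160, 111 and 117 with niacin, 104, 106 and 98.9 stimulated and 137, 128 and 112 stimulated in niacin. Under the knockout label it was 135, 122 and 349 unstimulated, 126 and 145 with niacin, 87, 84.3 and 87 stimulated, and 97.4, 94.8 and 106 stimulated in niacin. Groups labelled wild type overlapped between states, and every knockout-labelled stimulated library lay under every unstimulated one. The log2 values were -0.38 (adjusted p = 0.262) and -0.04 (0.907) in wild-type-labelled cells without and with niacin. Gata3 fell by 1.23 (SE 0.27, adjusted p = 0.000854, edgeR) in knockout-labelled cells without niacin, by 0.58 without library 3 (adjusted p = 0.00571), and stood at -0.45 (0.221) in niacin. The difference in response between labels, averaged over cultures without and with niacin, was -0.63 ± 0.28 (adjusted p = 0.233, edgeR), or -0.30 (adjusted p = 0.303) without library 3.

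Maf (ENSMUSG00000055435, chr8:115682942-115707794, minus strand) was a low factor that was lower after stimulation. Unstimulated wild-type-labelled libraries read 18.6, 15.8 and 14.3 CPM, and 22.9, 13.1 and 15.4 with niacin, against 8.77, 5.46 and 9.45 stimulated and 6.2, 4.36 and 5.6 with niacin. Knockout-labelled libraries read 20.4, 14.2 and 42.5 unstimulated, 18.1 and 19.6 with niacin, 6.56, 4.47 and 15.1 stimulated, and 6.57, 5.28 and 14.6 with niacin. Library 3 of both stimulated knockout-labelled groups was the highest of its group. Maf fell by 1.67 (SE 0.44, adjusted p = 0.00365, edgeR) in wild-type-labelled cells in niacin. It fell by 1.55 (SE 0.44, adjusted p = 0.00566) in knockout-labelled cells without niacin, a call that ended at -0.99 (0.0528) without library 3 labelled unstimulated knockout. The other values were -1.04 (adjusted p = 0.0553) and -1.10 (0.0580).

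Of the 14 Th2 effectors, 5 were called higher and 3 lower in wild-type-labelled cells without niacin, and 5 and 4 with niacin. In knockout-labelled cells 6 and 4 and then 5 and 3 were called. Over these comparisons 23.4% to 26% of all genes were called higher and 21.7% to 27.5% lower. Nfil3, a leucine zipper factor, went from 9.45 ± 1.66 to 213 ± 22.5 CPM (SD, n = 3; log2 4.49, adjusted p = 2.47e-13, edgeR, wild-type label, no niacin). The chemokine receptors Ccr8 and Ccr4 went from 2.37 ± 0.427 to 8.8 ± 1.24 and from 10.2 ± 2.31 to 30.9 ± 1.76 CPM. Il17rb, the receptor for IL-25, fell from 9.53 ± 5.64 to 0.222 ± 0.25. Il4 itself was 10.5 ± 4.58 and 6.43 ± 1.28 CPM (log2 -0.72, adjusted p = 0.0753, edgeR).

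Rora (ENSMUSG00000032238, chr9:68653786-69388246, plus strand) fell in all 4 comparisons. Wild-type-labelled libraries read 107, 64 and 58.3 CPM unstimulated, 114, 57 and 52.2 with niacin, 22, 14.4 and 11.3 stimulated, and 16.5, 13.6 and 19.4 stimulated in niacin. Knockout-labelled libraries read 96.7, 59.3 and 107 unstimulated, 63.3 and 91.2 with niacin, 14.5, 8.61 and 11.5 stimulated, and 12, 6.58 and 6.68 stimulated in niacin. The lowest unstimulated library, at 52.2 CPM, lay above the highest stimulated one, at 22. The log2 fold change was -2.27 ± 0.35 (adjusted p = 2.7e-05, edgeR), -2.17 ± 0.35 (3.23e-05), -2.93 ± 0.36 (1.48e-06) and -3.20 ± 0.38 (1.53e-06). Library 3 labelled unstimulated knockout was not the highest for this gene, and without it -2.93 became -2.76.

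Ahr (ENSMUSG00000019256, chr12:35497974-35535038, minus strand) was the least abundant of the 9, with 3150 counts over all libraries. Unstimulated wild-type-labelled libraries read 12.4, 9.35 and 9.79 CPM, and 12.7, 7.69 and 11.5 with niacin. Stimulated ones read 2.23, 2.69 and 1.15, and 2.86, 2.33 and 1.2. Knockout-labelled libraries read 5.49, 8.26 and 23.7 unstimulated, 7.51 and 11.9 with niacin, 0.938, 0.0921 and 1.04 stimulated, and 0.0821, 0.712 and 3.81 with niacin. The lowest unstimulated value, 5.49, lay above the highest stimulated one, 3.81, and the lowest 2 rested on 2 counts each. The log2 fold change of Ahr was -2.38 (SE 0.75, adjusted p = 0.0141, edgeR) and -2.32 (0.0138) in wild-type-labelled cells without and with niacin. It was -4.14 (SE 0.84, adjusted p = 0.000353, edgeR) and -2.66 (0.0104) in knockout-labelled cells, and the first was -3.30 (0.00174) without library 3 labelled unstimulated knockout. Of the 4 calls 3 ended with a single library left out, at values that stayed near the first ones: the adjusted p was 0.0637 without stimulated wild-type-labelled library 3, 0.0537 without library 3 of those in niacin, and 0.0695 without unstimulated knockout-labelled library 3 in niacin (log2 -2.09, -2.03 and -2.29). The last left 1 library in its group, assumed to vary like the other groups.

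Targets of the AHR protein did not move as one. Of 4 tested, none was called in wild-type-labelled cells without niacin and 2 fell with niacin, while 2 rose and none fell in knockout-labelled cells without niacin, and 1 fell with niacin. None was called in that label without niacin once library 3 labelled unstimulated knockout was left out. For these targets and the partners below, the shares of all genes were 23.4% to 26% higher and 21.7% to 27.5% lower over the 4 comparisons. Tiparp was at 38.6 ± 8.71 and 43.4 ± 1.33 CPM (unstimulated and stimulated, wild-type label, no niacin; SD, n = 3) and Ahrr, the repressor of the receptor, at 1.86 ± 0.325 and 0.645 ± 0.56. Arnt, the partner through which AHR binds DNA, was at 85.5 ± 7.45 and 68.2 ± 5.81 (adjusted p = 0.0562, edgeR). Of all 11 partner genes of the set, 3 were called higher and 3 lower in wild-type-labelled cells in niacin, 1 and 4 in knockout-labelled cells without niacin (1 and 3 without library 3), and 1 and 1 with niacin. In wild-type-labelled cells without niacin 1 rose (Hsp90ab1, a chaperone that holds AHR, 1101 ± 154 to 2108 ± 104 CPM) and 1 fell (Ncor1, a corepressor, 338 ± 12.5 to 209 ± 26.1). Cbfb, the shared partner of RUNX proteins, was at 149 ± 24.1 and 105 ± 21.8 CPM there (log2 -0.51, adjusted p = 0.0539). Cbfb fell in wild-type-labelled cells in niacin (-1.17, adjusted p = 0.000119, edgeR). In knockout-labelled cells without niacin it fell by 0.59 (adjusted p = 0.0241), a call that ended at -0.42 (0.107) without library 3, and with niacin it was at 0.10 (0.735).

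Il17a had 0 counts in 21 of the 23 libraries and was not tested. Of all genes tested, 23.4% to 26% rose and 21.7% to 27.5% fell over the 4 stimulation comparisons. Of 8 Th17 effectors tested 4 fell and none rose in wild-type-labelled cells without niacin, 4 fell and 1 rose with niacin, 5 fell and none rose in knockout-labelled cells, and 4 fell and 1 rose with niacin. Among those that fell, the ion channel genes Tmem176b and Tmem176a went from 54.9 ± 26.6 to 17.1 ± 1.08 and from 35.5 ± 17.9 to 14 ± 4.64 CPM. The call of Tmem176a (log2 -1.34, adjusted p = 0.0121, edgeR) ended without library 1 of the unstimulated cells (-0.85, 0.109) or library 3 of the stimulated cells (-1.16, 0.0599).

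Bcl6 (ENSMUSG00000022508, chr16:23965052-23988852, minus strand) fell in all 4 comparisons. Unstimulated wild-type-labelled libraries read 36.9, 35.4 and 39.1 CPM, and 23.9, 31.1 and 26.3 with niacin. Stimulated ones read 2.18, 3.98 and 6.41, and 4.72, 3.3 and 3.84 with niacin. Knockout-labelled libraries read 29.1, 33.6 and 41.6 unstimulated, 26.9 and 25.7 with niacin, 2.13, 4.14 and 2.72 stimulated, and 4.85, 5.07 and 4.44 with niacin. No stimulated library exceeded 6.41 CPM and no unstimulated one lay under 23.9. The log2 fold change was -3.14 ± 0.29 (adjusted p = 4.32e-08, edgeR), -2.78 ± 0.29 (1.72e-07), -3.53 ± 0.30 (1.15e-08) and -2.46 ± 0.30 (2.14e-06). Without library 3 labelled unstimulated knockout, -3.53 became -3.39.

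Prdm1 (ENSMUSG00000038151, chr10:44437177-44528501, minus strand) stayed between 14.8 and 28.4 CPM in all 23 libraries. Wild-type-labelled libraries read 22.3, 22.3 and 17.6 unstimulated, 15.6, 27.2 and 21.1 with niacin, 21.4, 21.3 and 17.4 stimulated, and 25.4, 24.7 and 22.8 stimulated in niacin. Knockout-labelled libraries read 14.8, 17.3 and 18.2 unstimulated, 19.8 and 24.2 with niacin, 19.5, 20.3 and 24.5 stimulated, and 18.7, 21.2 and 28.4 stimulated in niacin. The log2 values were -0.05, 0.19, 0.36 and 0.05, with adjusted p-values of 0.856, 0.436, 0.138 and 0.875 (edgeR). The 95% intervals were -0.46 to 0.37, -0.23 to 0.60, -0.06 to 0.77 and -0.42 to 0.51. The knockout-labelled groups without niacin did not overlap, and their value without library 3 was 0.42 (adjusted p = 0.107). Prdm1 also drives plasma cells, whose markers Jchain, Sdc1 and Mzb1 averaged 1.14, 0.73 and 0.204 CPM, while Ighm (734) and Xbp1 (615) were abundant. Because Bcl6 fell and Prdm1 was not called, the ratio of Bcl6 to Prdm1 per kilobase was 0.884 to 1.9 in the 11 unstimulated and 0.0848 to 0.307 in the 12 stimulated libraries, with medians of 1.32 and 0.148.

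Follicular helper genes beyond Bcl6 were mostly lower where they were called. Of 18, 8 fell and 1 rose in wild-type-labelled cells without niacin, 8 and 2 with niacin, 9 and 2 in knockout-labelled cells, and 9 and 2 with niacin. The shares of all genes there were 21.7% to 27.5% lower and 23.4% to 26% higher. Il6ra, the receptor for IL-6, fell from 221 ± 15.1 to 27.6 ± 5.07 CPM, Tcf7, the factor TCF-1 of naive and follicular cells, from 1807 ± 247 to 436 ± 24.7, and Cxcr5, the homing receptor of follicular cells, from 7.45 ± 1.3 to 2.51 ± 1.29 (SD, n = 3). The call of Cxcr5 (log2 -1.57, adjusted p = 0.0166, edgeR) ended without library 2 (-1.26, 0.0807) or without library 3 (-1.52, 0.0533) of the stimulated cells. Il21 did not exceed 0.96 CPM in any library.

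Among 24 other regulators of helper fate, 4 were called higher and 14 lower in wild-type-labelled cells without niacin, 8 and 13 with niacin, 4 and 15 in knockout-labelled cells, and 5 and 15 with niacin. Beside Nfil3, the largest rises were in Bhlhe40, a factor of cytokine-producing helper cells, from 72.6 ± 38.9 to 438 ± 31.2 CPM, and Irf4, a factor induced by the antigen receptor, from 7 ± 2.62 to 32.4 ± 6.01. The largest falls beside Tcf7 were in Zbtb16 (PLZF, a factor of innate-like T cells), from 22.6 ± 12.4 to 0.733 ± 0.953, and Klf2, a factor of resting cells, from 1375 ± 238 to 357 ± 8.38. Foxp3, the factor of regulatory T cells, went from 124 ± 13.2 to 40.2 ± 6.2 CPM (log2 -1.62, adjusted p = 3.95e-08, edgeR). Of 18 cytokine receptors and signalling genes, 5 rose and 6 fell, then 6 and 6, 5 and 5, and 5 and 6 in the same order of comparisons. Beside both lists, 23.4% to 26% of all genes rose and 21.7% to 27.5% fell. The IL-2 receptor chains Il2ra (253 ± 39.9 to 1362 ± 134 CPM) and Il2rb (1079 ± 433 to 3171 ± 117) rose, while Tgfbr2, a receptor chain for TGF-beta (546 ± 50 to 179 ± 17.3), fell.

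Of 10 nearest relatives of the factors tested, 2 were called higher and 2 lower in wild-type-labelled cells without niacin, and 4 and 1 with niacin. In knockout-labelled cells the counts were 2 and 3 without niacin and 2 and 1 with niacin. The 2 and 2 of the first comparison stood near the shares of all genes, 23.4% and 21.7%. Gata1, the erythroid relative of Gata3, rose by 1.62 on the log2 scale, and Maff, a small Maf protein, by 1.65, while Mafk fell by 1.03 (adjusted p = 4.62e-08, 0.000373 and 0.000133, edgeR). Without library 3 labelled unstimulated knockout, the counts in knockout-labelled cells without niacin were 3 higher and 8 lower for the Th1 list, 6 and 2 for the Th2, 0 and 5 for the Th17 and 2 and 10 for the follicular list. They were 6 and 15 for the other regulators, 5 and 7 for the cytokine inputs and 4 and 3 for the nearest relatives. The share of all genes there was 27.2% in each direction.

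Levels can be ordered between genes per kilobase. In unstimulated cells the median RPKM ran from Gata3 (33.4) and Tbx21 (29.6) over Runx3 (16), Rora (4.9), Bcl6 (4.65), Prdm1 (3.56), Maf (2.2) and Eomes (1.64) to Ahr (1.59). In stimulated cells it ran from Runx3 (42.2) over Gata3 (25.5), Eomes (21.9), Tbx21 (19.1), Prdm1 (3.83), Rora (0.978), Maf (0.774) and Bcl6 (0.606) to Ahr (0.19). Within a gene, neighbouring group means in the order of the 8 groups mostly overlapped. The break with no overlap fell between the states for Eomes (84 and 14.4 CPM), Rora (74.4 and 16.5), Bcl6 (26.3 and 4.79) and Ahr (9.68 and 2.13). Runx3 and Gata3 had further breaks within the stimulated state, at 234 against 202 CPM for Runx3 (wild-type against knockout label, no niacin), and for Gata3 at 126 against 103 (niacin against none, wild-type label) and 99.5 against 86.1 (niacin against none, knockout label). Tbx21, Maf and Prdm1 had none.

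Library 3 labelled unstimulated knockout was the highest of the 11 unstimulated libraries for 7 of the 9 factors, the exceptions being Rora and Prdm1. It was the highest of those 11 for 28.2% of all genes tested, and the next library for 11.4%. Against the median of the other 10, it was 4.41 times as high for Tbx21, 3.89 for Eomes, 3.2 for Runx3, 2.69 for Gata3, 2.5 for Maf, 2.48 for Ahr, 1.68 for Rora and 1.38 for Bcl6, and it stood at 0.89 of it for Prdm1. Library 1 under the unstimulated wild-type label was the highest of its group for 7 of the 9 factors both without and with niacin. The exceptions were Bcl6 and Prdm1. The share of all genes that were highest in library 1 of both groups was not computed. The gamma delta receptor sum of library 1 was also the highest of its group, at 152 CPM without and 261 with niacin. The part of that in the result was not tested.

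**Figure D3:**
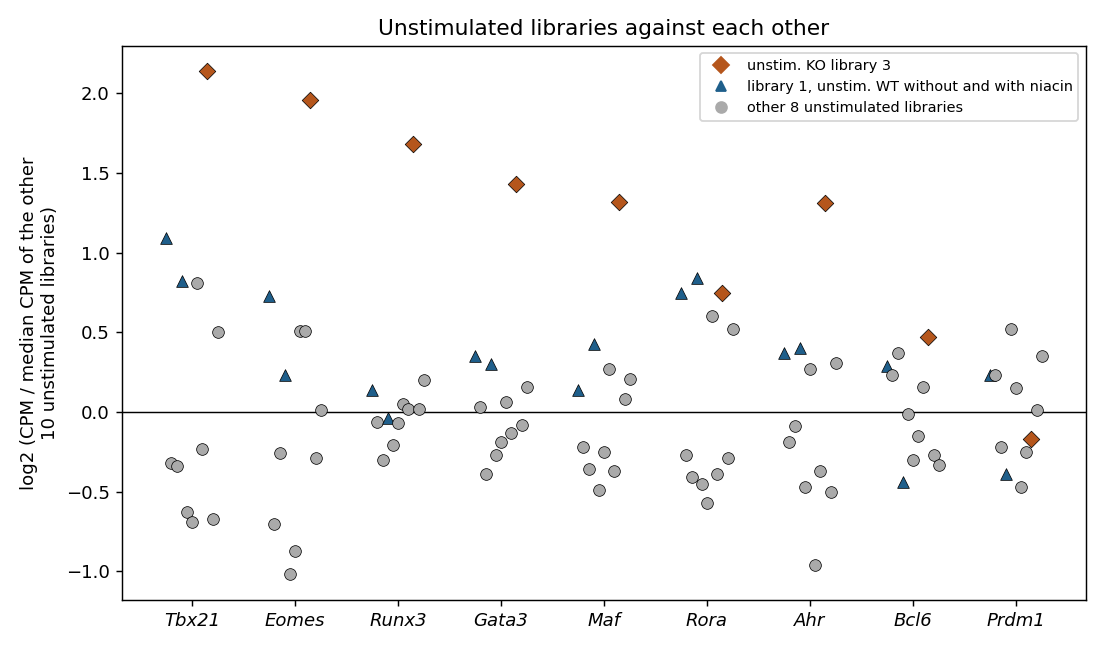
Log2 ratio of each of the 11 unstimulated libraries to the median CPM of the other 10 (y axis) for each factor (x axis); diamonds are library 3 labelled unstimulated knockout and triangles are library 1 of the wild-type-labelled cells without and with niacin. The diamond is the top point for 7 of the 9 factors, and the niacin triangle is the top point for Rora.

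Niacin gave no call among the 9 factors. In unstimulated and stimulated wild-type-labelled cells and in unstimulated knockout-labelled cells 0 of 9 passed, as did 0% of all genes, and in stimulated knockout-labelled cells 0 of 9 passed against 0.00592% of all genes (edgeR). At an unadjusted p under 0.05 the counts were 0, 0, 3 and 1 of the 9, and DESeq2 also called 0 in each. The share of all genes at that p was 2.71%, 9.96%, 7.96% and 5.22%. The 3 were Eomes, Tbx21 and Runx3, at log2 differences of -1.15, -1.13 and -0.69 in unstimulated knockout-labelled cells, which became -0.52, -0.34 and 0.08 without library 3 labelled unstimulated knockout. With no filter on low counts, Tbx21 and Eomes were called there, and the share of all genes called without the filter was not computed. In stimulated knockout-labelled cells Bcl6 read 4.85, 5.07 and 4.44 CPM with niacin against 2.13, 4.14 and 2.72 without, with no overlap (log2 0.68, 95% interval 0.07 to 1.28, adjusted p = 0.874, edgeR). In unstimulated wild-type-labelled cells Bcl6 went the other way, at 23.9, 31.1 and 26.3 CPM against 36.9, 35.4 and 39.1 (log2 -0.45, interval -1.01 to 0.10). In unstimulated knockout-labelled cells it was 26.9 and 25.7 CPM against 29.1, 33.6 and 41.6, also with no overlap (log2 -0.40, interval -1.03 to 0.22). The difference of the niacin effect on Bcl6 between states, averaged over the labels, was 0.72 ± 0.29 (adjusted p = 0.405, edgeR), or 0.64 (adjusted p = 0.447) without library 3 labelled unstimulated knockout. Averaged over the 4 backgrounds no factor passed either (0.154% of all genes), and Eomes came closest at -0.49 ± 0.18 (adjusted p = 0.548, edgeR), or -0.34 (adjusted p = 0.433) without the same library.

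The intervals show which effects the data could still hold. For Prdm1 in unstimulated wild-type-labelled cells, the 95% interval of the niacin effect was -0.37 to 0.45 on the log2 scale. For Runx3 it was -0.63 to 0.56 there and -0.40 to 0.78 in stimulated cells. For Tbx21 it was -1.25 to 0.66 unstimulated and -0.31 to 1.62 stimulated, and for Ahr -1.44 to 1.47 and -1.49 to 1.64. The intervals of the last 2 factors span more than a 2-fold change in at least 1 direction. Under the same label, so did those of Eomes (-1.24 to 0.23) and Bcl6 (-1.01 to 0.10) unstimulated and of Maf (-1.46 to 0.36) stimulated.

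**Figure D4:**
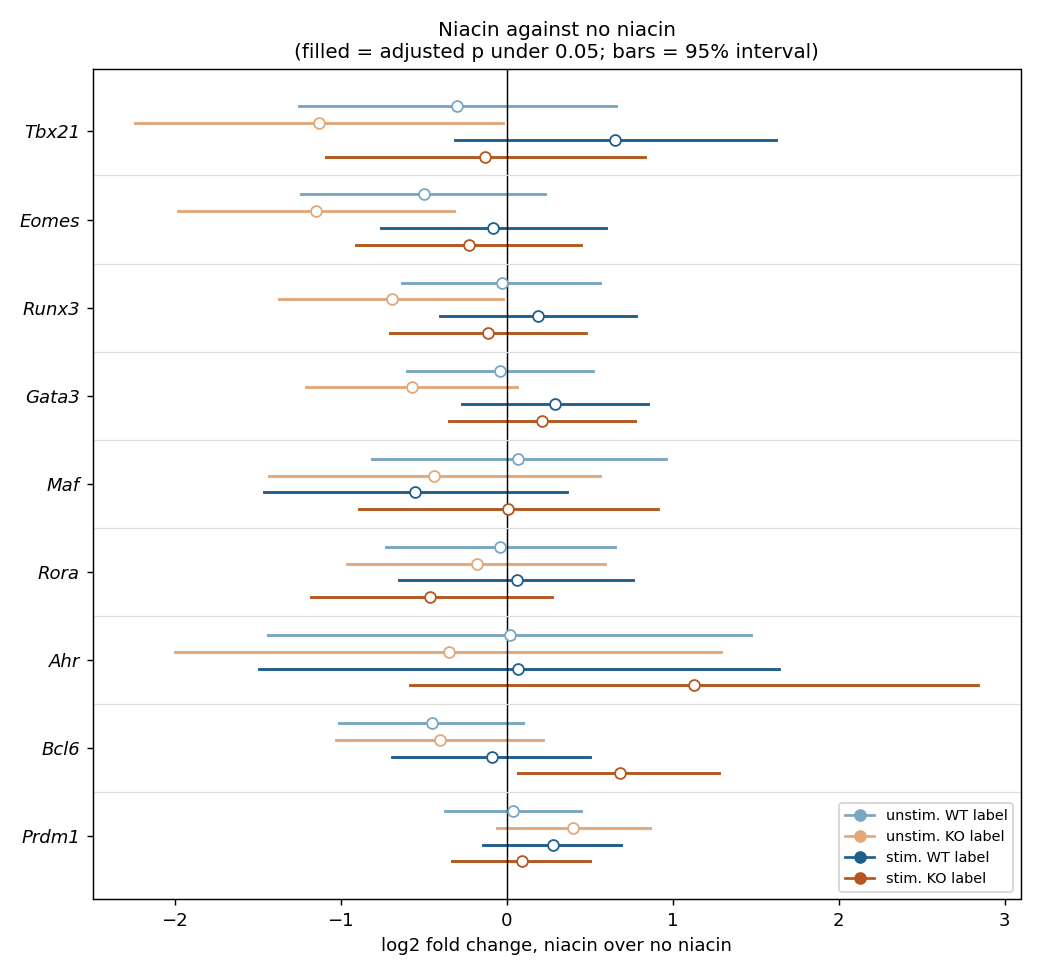
Log2 fold change of niacin over no niacin (x axis) for each factor (y axis) in the 4 backgrounds; points are edgeR estimates, all open because no adjusted p was under 0.05, and bars are 95% intervals. Estimates ran from -1.15 for Eomes in unstimulated knockout-labelled cells to 1.13 for Ahr in stimulated knockout-labelled cells.

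The genotype label gave no call either. Of the 9 factors, 0 passed in unstimulated cells (0.0415% of all genes), unstimulated cells in niacin (0.0355%), stimulated cells (0.113%) and stimulated cells in niacin (1.44%), and 0 on average over the 4 conditions (0.326%). Unadjusted p under 0.05 was reached by 3, 0, 0 and 1 factors and by 1 on average, against 10.4%, 0.983%, 8.45%, 19.4% and 9.87% of all genes, and DESeq2 called 0 in each. With no filter on low counts 3, 0, 2 and 1 factors were called, and 1 on average. The share of all genes called without the filter was not computed. The 3 at an unadjusted p under 0.05 in unstimulated cells were Eomes, Runx3 and Gata3, at log2 values of 1.00, 0.85 and 0.60 for knockout over wild-type label in unstimulated cells. Without library 3 labelled unstimulated knockout these became 0.37, 0.08 and -0.05. In stimulated cells in niacin Rora read 12, 6.58 and 6.68 CPM under the knockout label and 16.5, 13.6 and 19.4 under the wild-type label, with no overlap (log2 -0.97, 95% interval -1.70 to -0.25, adjusted p = 0.134, edgeR).

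The tests of a difference in response called none of the 9. It was 0 of 9 for the niacin effect between states (0% of all genes) and 0 of 9 for the stimulation effect between labels (0.077%). For the niacin effect between labels it was 0 of 9 (0%). These differences were averaged over the labels, over niacin and over the states, in this order. The lowest unadjusted p was that of Runx3 for stimulation between labels, at -0.89 ± 0.29 (unadjusted p = 0.00641, adjusted p = 0.137, edgeR). It was -0.50 without library 3 labelled unstimulated knockout (adjusted p = 0.0619). DESeq2 called 0 in each, and the counts at an unadjusted p under 0.05 were 1, 3 and 0 (11.9%, 18.9% and 3.64% of all genes). With no filter on low counts 1, 3 and 1 factors were called, with no share of all genes computed.

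Genes whose level followed a factor most closely over the 23 libraries are given as a description, since all libraries share the split into 2 states. Among 9743 genes of at least 5 CPM on average, the closest to Eomes was Vim (Pearson's r of log2 CPM 0.988), to Runx3 Eif3f (0.987), to Bcl6 Nacc2 (0.987) and to Rora Nr3c1 (0.964). For Gata3 it was Traf3ip2 (0.951), for Tbx21 Asb2 (0.942), for Ahr Cerk (0.931) and for Maf Ikzf3 (0.902). The closest to Prdm1 was Mapk11, at 0.666. Genes with r over 0.9 numbered 1328 for Eomes, 612 for Runx3, 611 for Bcl6 and 342 for Rora, against 40 for Gata3, 8 for Ahr, 6 for Tbx21, 1 for Maf and none for Prdm1. Within the 11 unstimulated libraries Tbx21 and Eomes had r = 0.91 and Gata3 and Runx3 0.956, and within the 12 stimulated ones 0.135 and 0.799. The first pair of values, without library 3 labelled unstimulated knockout, became 0.795 and 0.787 over 10 libraries, and the r of the closest genes moved to 0.89 for Gata3 and to 0.922 for Tbx21 over 22.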

How the data were processed

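The deposited table held raw read counts per Ensembl gene for the 23 libraries. Reads came from low-input SMART-seq V4 cDNA, sequenced in pairs. The authors' tools, per the submitters' processing notes, were Trimmomatic 0.38, STAR 2.7.0e and featureCounts 1.6.3 on mouse build GRCm38, with the strand setting not given in the sources used here. All 23 count columns were mapped to samples by their names. The name of the column for library 3 labelled unstimulated knockout lacked the tag jax, which every other count column carried. What the tag marks is unknown. Whether a difference in handling had a part in how that library stood apart was not tested.

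The 9 factors and all gene lists were chosen with earlier results of these data known. One edgeR 4.0.16 quasi-likelihood model (R 4.3.3, limma 3.58.1) over all 8 groups was fitted to the 16882 genes kept by filterByExpr with a minimum count of 10, with TMM factors and 15 residual degrees of freedom. It gave 17 comparisons, with Benjamini-Hochberg adjusted p-values over all genes tested and a threshold of 0.05. Levels are TMM-scaled CPM, or RPKM over the union of exons. Log2 CPM for likeness used a prior count of 2 and genes of mean CPM of at least 5.

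Named list genes were Foxp3, Ifng, Il4, Il17a, Il21, Cxcr5, Cxcr3, Tiparp, Ahrr, Arnt and Cbfb, and up to 3 per list and direction with the largest called change in wild-type-labelled cells without niacin; some genes that the rule selects are not reported here. Alternatives were DESeq2 1.42.0, RLE factors, limma voom with quality weights, no filter, a replicate block, only the compared groups, and each library left out. On data simulated for niacin in unstimulated wild-type-labelled cells (16409 genes tested), 60% of 100 genes changed 2-fold and 96% of 100 changed 4-fold were called, with 8 false calls. The changed genes were drawn from the better-counted ones, and many changed genes at once ease the adjusted threshold. With few changed genes or low counts the recovery can be lower, and this was not simulated. Each gene was drawn on its own, so shifts shared by many genes of a library were not simulated either.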

Additional observations from a re-analysis of the deposited data

How the results depend on the processing

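Eomes, Rora and Bcl6 kept their direction and their call in all 4 stimulation comparisons under every alternative run. The number of factors called ranged, with single libraries left out, from 5 to 6 in wild-type-labelled cells both without and with niacin, from 6 to 7 in knockout-labelled cells without niacin and from 4 to 6 with niacin, where voom and the unfiltered table each called 8 against 5. Unfiltered, 2 factors were called for niacin in unstimulated knockout-labelled cells and 1 for niacin on average, and for the label 3 in unstimulated cells, 2 in stimulated cells, 1 in stimulated cells in niacin and 1 on average. Unfiltered, the differences in response gave 1 (niacin by state), 3 (stimulation by label) and 1 (niacin by label). Voom called 2 for the label in stimulated cells in niacin, 2 on average, and 4 for stimulation by label. Leaving out single libraries gave 0 to 1 for the label in unstimulated cells and 0 to 1 for stimulation by label. Shares of all genes called were not computed for the unfiltered, voom and DESeq2 fits, so the counts from those fits have no share beside them. With single libraries left out, shares were computed only without library 3 labelled unstimulated knockout, and not in every comparison. The causes were not tested.

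The labels do not say whether replicate numbers pair the libraries, and the main model used no pairing. Same-numbered libraries of different groups had a median correlation of deviations of 0.0187 over 77 pairs (range -0.266 to 0.289). Other pairs had -0.00431 over 154, and 9 of 23 libraries correlated best with their own number. These pairs pooled both labels, so the check could not exclude pairing within a label. The replicate block called 7, 6, 7 and 6 factors for stimulation and 1 (Rora) for the label in stimulated cells in niacin, against 0. The share of all genes called with the block was not computed.

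Alternatives chosen after seeing the data left out library 3 labelled unstimulated knockout everywhere or pairs of wild-type-labelled libraries. Without the wild-type-labelled stimulated niacin libraries 1 and 2, which leaves 1 library in that group, assumed to vary like the others, the calls of Maf (-1.63, adjusted p = 0.0875) and Ahr (-3.16, 0.0726) there ended. Without library 3 labelled unstimulated knockout, 8 factors were called for stimulation in wild-type-labelled cells without niacin and 7 in knockout-labelled cells in niacin. Both added Gata3 and Maf, and 1 factor (Runx3) was called for the label in stimulated cells in niacin. Shares of all genes called in these comparisons were not computed.

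Il21 was too low to be tested in the compared groups alone. Values near 0 turned sign. Gata3 after stimulation in niacin (wild-type label) was 0.16 with voom, 0.14 without both unstimulated wild-type-labelled libraries 1, and -0.14 to 0.14 with single libraries left out. Gata3 for the label in unstimulated cells was -0.05 to 0.86 with single libraries left out. Prdm1 after stimulation in niacin (knockout label) was -0.03 with DESeq2, RLE factors and no filter, -0.07 with voom, -0.01 without the same libraries 1 and 2, and -0.14 to 0.20 with single libraries left out. Prdm1 was -0.01 with voom in wild-type-labelled cells in niacin, and without niacin 0.01 without both libraries 1 and -0.15 to 0.04 with single libraries left out. Runx3 for niacin in unstimulated knockout-labelled cells was 0.01 with voom and -0.97 to 0.08 with single libraries left out. After stimulation (wild-type label, no niacin), ranges with single libraries left out were -0.13 to 2.41 for Il21, -0.02 to 0.37 for Nqo1 and -0.01 to 0.28 for Tiparp, which was also -0.01 without both libraries 1.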

Other observations

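Among the listed regulators outside the 9 factors, Foxp3 was called for niacin averaged over the 4 backgrounds, and it is named here after its values were seen. It was at 124 ± 13.2 CPM without and 143 ± 2.79 with niacin in unstimulated wild-type-labelled cells (SD, n = 3), and at 176 ± 15.4 and 206 ± 6.88 (n = 3 and 2) under the knockout label. In stimulated cells it was 40.2 ± 6.2 and 57.1 ± 1.6, then 39.8 ± 4.97 and 60.1 ± 11.5 (n = 3). The ranges without and with niacin did not overlap in any of the 4 backgrounds. The average log2 difference was 0.38 (adjusted p = 0.0338, edgeR), and the value stayed at 0.36 to 0.42 in all 30 settings. The call held in 11 of them and ended with most single libraries left out and with the replicate block, at an adjusted p of up to 0.157.

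Pdcd1 encodes an inhibitory receptor of follicular and exhausted cells, and it too is named after its values were seen. For the genotype label, Pdcd1 was higher by 0.71 on average under the knockout label (adjusted p = 0.0223, edgeR). The call held in 23 of 30 settings, at 0.64 to 0.77. The log2 difference was 0.77 in unstimulated cells and 0.83 in those with niacin. It was 1.14 in stimulated cells and 0.11 in those with niacin, and none of these was called alone. In stimulated cells in niacin, Nqo1 (log2 1.58, adjusted p = 0.0426), Cbfb (0.87, 0.0426) and Gata1 (-0.64, 0.0354) were called by edgeR, in 9, 8 and 9 of 15 settings.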
